A study of Mus musculus with 4 samples.

Results

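The aminoacyl-tRNA synthetases were taken from the table of polysome RNA by symbol. A gene belonged to the set if its symbol was a capital letter followed by ars, with or without a final 1, 2 or 3, or if it was Eprs, Eprs1, Farsa, Farsb or Tarsl2. The rule found 38 of the 18200 genes in the table. Of these, 17 carried the suffix 2 and encode the mitochondrial enzymes, and the other 21 encode the cytosolic ones. Gars and Kars, counted here as cytosolic, each give rise to a cytosolic and a mitochondrial form.

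The RNA came from polysomes, the messenger RNAs that carry several ribosomes, of mouse cells labelled ADSCs. The series title speaks of mesenchymal stem cell therapy and of a block of translation by IFIT1. There were 4 libraries, all labelled wild type, 2 with a scrambled control and 2 with a small hairpin RNA against Ifit1. Library 1 of each group was labelled batch 1 and library 2 batch 2. The sources used here did not give strain, passage or culture time, and they do not say whether the libraries came from separate cultures, so p-values weigh differences against the spread of these 4 libraries alone, and that spread may be technical. Total RNA was not analysed here. The amount of a messenger RNA, its loading with ribosomes and the number of cells that expressed it therefore cannot be told apart.

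An aminoacyl-tRNA synthetase joins an amino acid to the tRNA that reads its codons, and so supplies the ribosome with its substrate. The cytosol and the mitochondrion each hold a set, most of them from separate nuclear genes, and part of the cytosolic set is bound together in the multisynthetase complex on the scaffold proteins Aimp1, Aimp2 and Eef1e1. The transcription factor ATF4, made when amino acids run short or the endoplasmic reticulum is stressed, is known to switch on many cytosolic synthetase genes through an element that joins a C/EBP half-site to an ATF half-site.

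Ifit1, the target of the hairpin, which encodes an RNA-binding protein made in response to interferon, went against the labels. It stood at 1.93 and 1.91 FPKM (fragments scaled to gene length and library depth) in the scrambled-labelled libraries and at 13.9 and 14.8 in the knockdown-labelled ones (log2 difference 2.39, SE 0.04, limma adjusted p = 1.6e-04). All directions below are therefore those of the knockdown-labelled libraries against the scrambled-labelled ones. The values implied a depth of 32197315 to 39449375 fragments per library. Of 10 mesenchymal stromal markers 6 had a mean of at least 1 FPKM, while Nt5e, Pdgfra, Pdgfrb and Alcam did not. The 10 summed to 41.7 and 41.1 FPKM in the scrambled-labelled libraries and to 97.7 and 96.8 in the knockdown-labelled ones. Of the other cell types checked, epithelial markers summed to 0.864 and 0.836 against 5.41 and 5.72 FPKM (Epcam, Cdh1 and Krt14 below 1), adipocyte markers to 2.62 and 2.51 against 1.47 and 1.48 (Adipoq, Lep and Cidec without a row), and leukocyte, endothelial and skeletal muscle markers to at most 0.399 in any library. The part of these differences in the results below was not tested.

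FPKM is a level per length, so genes can be ranked by it, given the length used for each. The length recovered from the values was 15488 bases for Nars2 (261 to 348 fragments) and 2882 for Mars2 (122 to 215). For Tars it was 1318 bases. The ranks, level ratios and filter rest on these lengths, and whether they match the transcripts of these cells was not tested. In the scrambled-labelled libraries 8 synthetases had a mean above 100 FPKM: Sars at 336, Gars at 297, Yars at 202, Nars at 198, Kars at 188, Tars at 182, Farsa at 136 and Hars at 104. All 8 are cytosolic. In the knockdown-labelled libraries 7 were above 100 FPKM, and one of them was mitochondrial: Lars2, at rank 13 of the 38 in the scrambled-labelled libraries, stood at rank 4. The lowest FPKM were those of Nars2 (0.523, 0.555, 0.570 and 0.549 FPKM, in the order scrambled 1, scrambled 2, knockdown 1 and knockdown 2) and Iars2 (0.809, 0.894, 0.918 and 0.845 FPKM in the same order). Their groups overlapped, and a mean below 1 FPKM kept both out of the test.

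**Figure D1:**
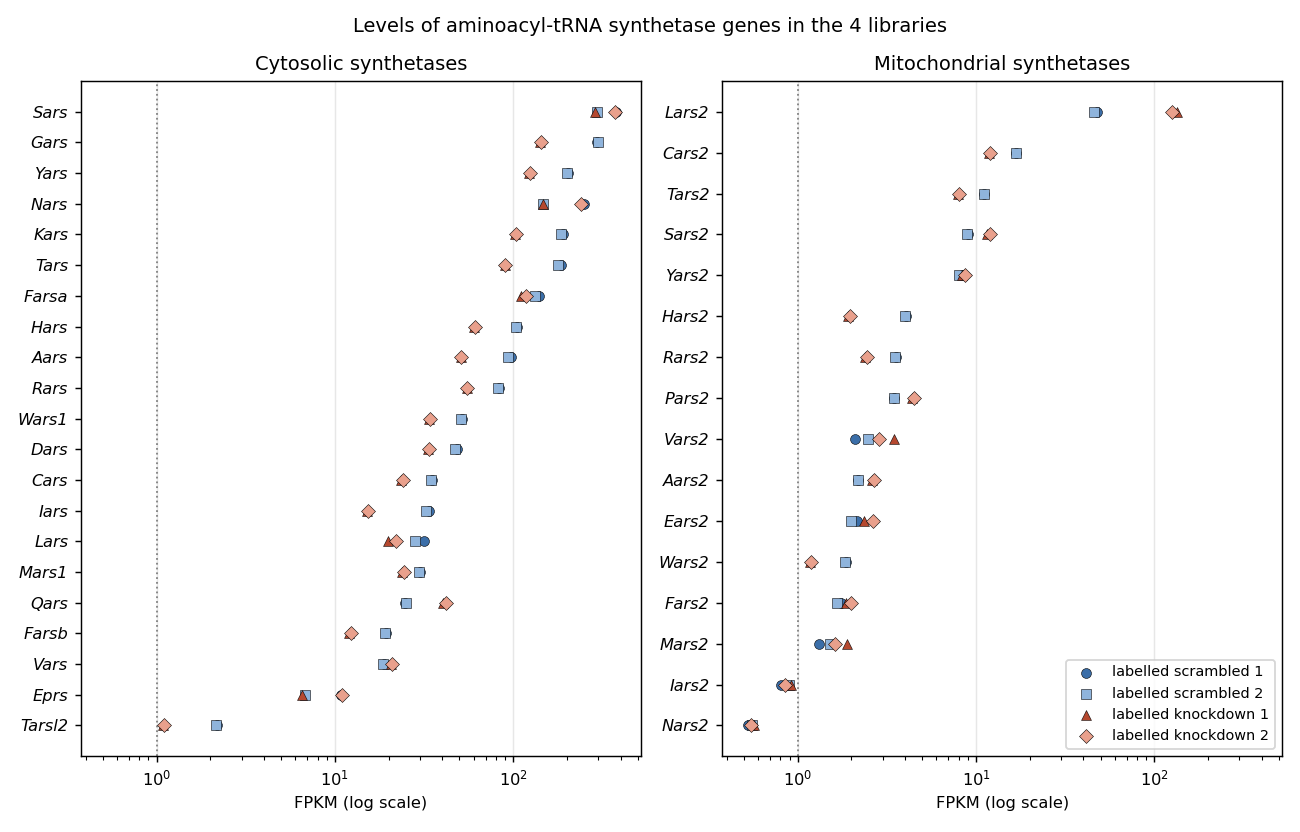
FPKM (log axis) of 37 synthetase genes in each of the 4 libraries, cytosolic genes on the left and mitochondrial genes on the right, ordered by the mean of the scrambled-labelled libraries; the dotted line marks 1 FPKM. Most cytosolic genes have their red symbols (labelled knockdown) to the left of the blue ones (labelled scrambled), and Lars2, at 134 and 126 against 47.7 and 45.6 FPKM, has them far to the right.

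The other 36 synthetases, all 21 cytosolic and 15 of 17 mitochondrial ones, were tested together with every gene whose mean was at least 1 FPKM, on log2(FPKM + 1) with limma. For scarce genes the added 1 makes a difference on this scale smaller than the true change. A gene was called at an adjusted p under 0.05. Among all 8750 tested genes 68.7% were called, 27.4% higher and 41.2% lower in the knockdown-labelled libraries, and the median difference was -0.02. Among the 36 synthetases 6 rose, 22 fell and 8 did not pass, and their median was -0.42. Cytosolic and mitochondrial genes gave different counts, a difference that was not tested: 16 of 21 cytosolic genes fell, 2 rose and 3 did not pass, with a median of -0.57 (-0.63 in batch 1 and -0.55 in batch 2), while 6 of 15 tested mitochondrial genes fell, 4 rose and 5 did not pass, with a median of 0.11 (0.05 and 0.10). Centring each library on its median raised the median of all tested genes to 0.15. In that fit 2833 of the 8750 genes were called higher and 3040 lower. Of the synthetases 11 were then called higher and 19 lower. These were 13 cytosolic genes lower and 2 higher (median -0.40), and 6 mitochondrial genes lower and 9 higher (median 0.28).

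The separation of the groups can be read from the libraries themselves. In 16 of 21 cytosolic genes both libraries labelled knockdown lay below both labelled scrambled, and in 2 both lay above; among all tested genes the shares were 44.4% and 30.1%. In the 15 tested mitochondrial genes the counts were 6 below and 8 above. No called synthetase had groups that overlapped, but with 2 libraries per group a call leaves little room for overlap, so this adds no separate support. Summed over the 21 cytosolic genes, the level was 2233 and 2009.6 FPKM in the scrambled-labelled libraries and 1398 and 1601 in the knockdown-labelled ones, which was 1.41-fold lower. As a share of all FPKM in the library, the cytosolic sum was 0.373% and 0.326% against 0.199% and 0.235%.

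**Figure D2:**
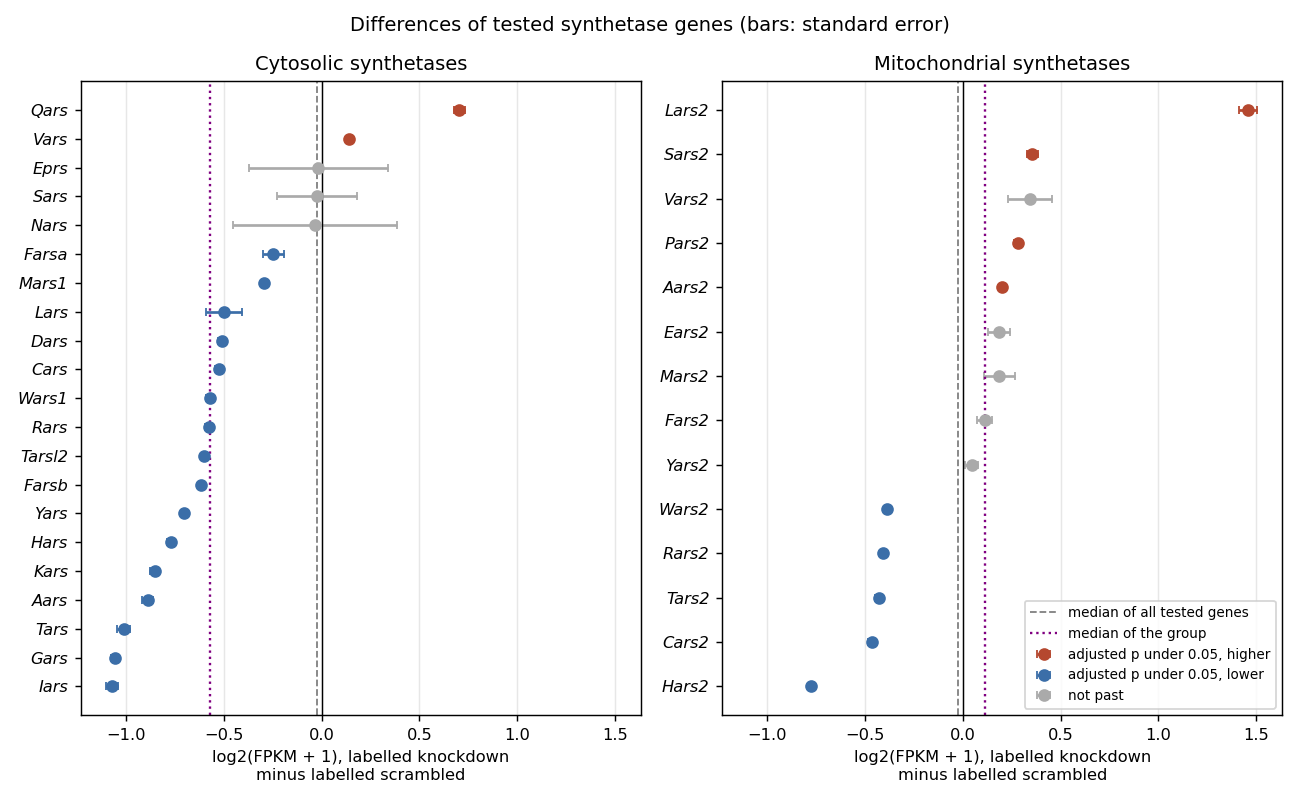
Differences of tested synthetase genes, as log2(FPKM + 1) in the 2 libraries labelled knockdown minus the 2 labelled scrambled, with its standard error from limma; blue and red mark adjusted p under 0.05, grey the rest, the dashed line the median of all tested genes (-0.02) and the dotted line the median of all tested genes of that group. The cytosolic panel holds 16 blue, 2 red and 3 grey genes around -0.57, and the mitochondrial panel draws 5 blue, 4 red and 5 grey genes, with a group median of 0.11.

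Among the cytosolic genes, the lowest differences in log2(FPKM + 1) were those of isoleucyl-, glycyl- and threonyl-tRNA synthetase. Iars, which charges the isoleucine tRNA and sits in the multisynthetase complex, was at 33.9 and 32.4 FPKM in the scrambled-labelled libraries and at 15.2 and 15.3 in the knockdown-labelled ones. Its difference was -1.07 (SE 0.03, adjusted p = 1.7e-04), a 2.17-fold lower level. Gars, which charges glycine in the cytosol and the mitochondrion, was at 297 FPKM in both libraries labelled scrambled and at 141 and 144 in the knockdown-labelled ones. The difference came to -1.06 (SE 0.02, adjusted p = 1.6e-04), or 2.09-fold. Tars, the main cytosolic threonine enzyme, was at 187 and 178 FPKM against 89.8 and 89.7 (-1.01, SE 0.03, adjusted p = 2.0e-04). These 3 genes fell by similar amounts although Gars stood far above Iars in level.

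Alanyl- and lysyl-tRNA synthetase followed. Aars, a class II enzyme that also clears tRNA wrongly charged with serine, stood at 96.9 and 93.3 FPKM in the scrambled-labelled libraries and at 51.1 and 50.7 in the knockdown-labelled ones (-0.89, SE 0.03, adjusted p = 1.9e-04). Kars, which also serves both compartments, went from 189.7 and 186 FPKM to 103 and 104 (-0.85, SE 0.02, adjusted p = 1.6e-04). Without Gars and Kars, 14 of 19 cytosolic genes fell, and their median was -0.52.

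Histidine, tyrosine and phenylalanine charging came next. Hars was at 105 and 103 FPKM against 60.4 and 61.1, 1.71-fold lower. Yars, a class I enzyme whose fragments are known to act as cytokines, fell 1.63-fold from 203 and 200.5 FPKM (-0.70). The phenylalanine enzyme is built from an alpha and a beta subunit, encoded by Farsa and Farsb, and they moved by unequal amounts. Farsb, the beta subunit, fell 1.57-fold, from 19.3 and 19.1 to 12.1 and 12.3 FPKM (-0.61, SE 0.02, adjusted p = 1.9e-04). Farsa, the alpha subunit, was at 140.0 and 132 FPKM against 111 and 118, a difference of -0.25 (SE 0.05, adjusted p = 0.028). Its call did not hold when any 1 library was left out: the adjusted p was 0.11 without scrambled 1, 0.061 without scrambled 2, 0.11 without knockdown 1 and 0.058 without knockdown 2. It was 0.096 with the batch as a block and 0.43 with libraries centred on their medians.

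The remaining cytosolic decreases lay between -0.60 and -0.29. Tarsl2, a threonyl-tRNA synthetase close to Tars, was the scarcest cytosolic member, at 2.20 and 2.17 FPKM against 1.09 and 1.11, a 1.99-fold lower level from 226, 271, 137 and 128 fragments. Rars, the arginine enzyme of the complex, stood at 83.4 and 82.0 against 54.9 and 55.4 FPKM (-0.58). Wars1, the tryptophan enzyme and known as a gene that interferon gamma induces, stood at 51.5 and 50.7 against 33.9 and 34.4 FPKM (-0.57, adjusted p = 2.2e-04). Cars (cysteine) fell 1.46-fold and Dars (aspartate, in the complex) 1.43-fold. Mars1, the methionine enzyme of the complex, fell 1.23-fold (-0.29, SE 0.02, adjusted p = 0.0010). Mars1 no longer passed with every library centred on its median (adjusted p = 0.079) or with the trend with gene length removed (0.076).

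Lars, the leucine enzyme of the complex and a known leucine sensor for mTORC1, was at 31.8 and 28.2 FPKM in the scrambled-labelled libraries and at 19.8 and 22.1 in the knockdown-labelled ones. The groups did not overlap, and the difference was -0.50 with an SE of 0.09 (adjusted p = 0.019). The adjusted p was 0.058 without scrambled 1, 0.099 without knockdown 1 and 0.059 without knockdown 2, 0.067 with the batch as a block, 0.051 with libraries centred on their medians and 0.057 with the length trend removed.

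A promoter window from RefSeq, 250 bases before to 50 after the start of the gene (build GRCm38.p6), was matched to 28 of the 38 synthetases by gene ID, 14 cytosolic and 14 mitochondrial. It was searched on either strand for the ATF4 composite element TGATGNAA, and separately for the interferon response element (GAAA, any 2 bases, GAAA) and the STAT element TTCNNNGAA. The windows of Yars, Gars, Aars, Iars and Tars held TGATGNAA, 5 of 14 cytosolic genes (35.7%). No mitochondrial window held it (0 of 14), and over all tested genes with a window the share was 160 of 7114 (2.25%), or 4.51% of all 27025 genes in the promoter table. The sequences below are those of these 5 genes, which were among the cytosolic genes with the lowest differences. Kars (-0.85) and Hars (-0.77) lay below Yars (-0.70) too, but Kars held no match and Hars had no window. Each sequence reads 5′ to 3′ on the strand of the gene, and capitals mark the TGATGNAA match, on either strand. For Gars, Aars and Tars the 130 bases before the start are given, and for Yars, Iars and a further match of Aars 30 bases around a match that lies just after the start.
Gars, chr6:55037871-55038000, plus strand: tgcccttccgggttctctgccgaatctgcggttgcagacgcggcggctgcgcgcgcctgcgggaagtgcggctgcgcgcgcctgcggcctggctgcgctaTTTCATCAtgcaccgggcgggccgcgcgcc
Aars, chr8:111033712-111033841, plus strand: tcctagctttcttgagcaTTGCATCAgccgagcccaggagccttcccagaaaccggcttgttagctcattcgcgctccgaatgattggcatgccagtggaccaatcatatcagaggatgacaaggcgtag
Tars, chr15:11399659-11399788, minus strand: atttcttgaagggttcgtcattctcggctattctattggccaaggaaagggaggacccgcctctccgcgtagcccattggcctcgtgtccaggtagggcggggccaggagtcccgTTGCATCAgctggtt
Yars, chr4:129189895-129189924, plus strand: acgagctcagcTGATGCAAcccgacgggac
Iars, chr13:49682126-49682155, plus strand: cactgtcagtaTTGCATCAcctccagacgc
Aars, chr8:111033840-111033869, plus strand: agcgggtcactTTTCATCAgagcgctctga

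The match began 30 bases before the start in Gars, 15 before it in Tars, 112 before it and again 9 after it in Aars, 3 after it in Yars and 7 after it in Iars. All 5 genes fell, from -1.07 to -0.70, with a median of -1.01. Of the 9 cytosolic genes whose window did not hold these letters 6 fell, 1 rose and 2 did not pass, and their median was -0.29. Of 155 other tested genes that held the motif 60 fell (38.7%), 41 rose and 54 did not pass, with a median of -0.03, against 41.2% of all tested genes that fell. The same letters stood in the windows of 8 ATF4 target genes of the list used here, Asns, Atf3, Chac1, Nupr1, Pck2, Slc1a4, Slc7a11 and Trib3, of which 1 fell, 2 rose, 4 did not pass and Slc7a11 was not tested. A match is a stretch of letters in a window, and binding of ATF4 was not measured here. TTCNNNGAA was in the windows of Aars and Kars and, among mitochondrial genes, of Nars2, against 7.75% of tested genes, and in Aars it did not overlap the TGATGNAA matches.

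**Figure D3:**
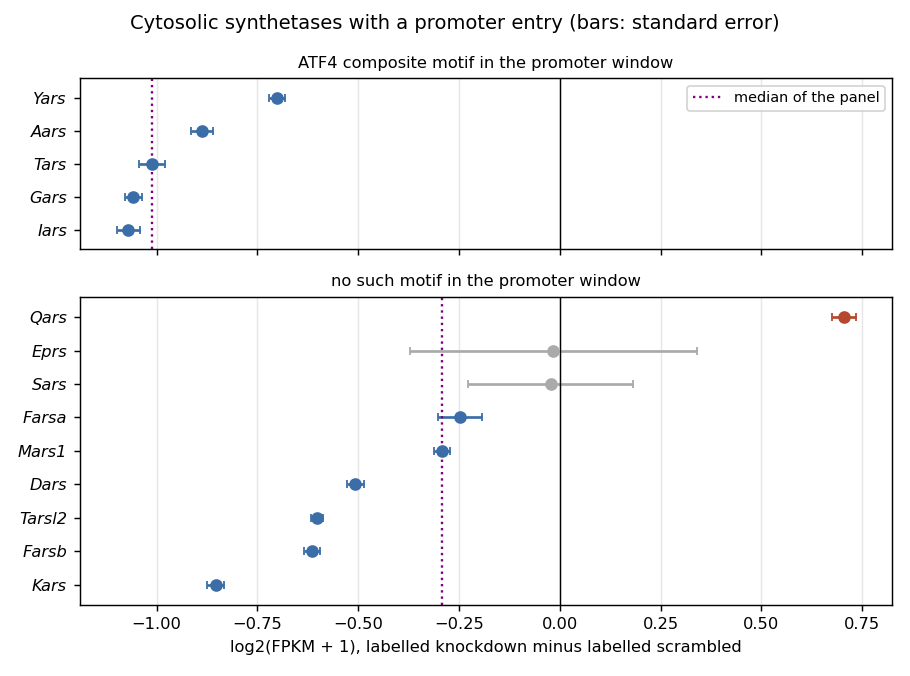
Difference in log2(FPKM + 1), labelled knockdown minus labelled scrambled, with the standard error from limma, for the 14 cytosolic synthetases with a promoter window, split by whether the window holds TGATGNAA; dotted lines are the panels' medians, and colours are as in the plot of all differences. The 5 genes with the motif run from -1.07 to -0.70 around -1.01, and the 9 without it from -0.85 to 0.70 around -0.29.

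Only Qars and Vars rose among the cytosolic genes. Qars, the glutamine enzyme of the complex, was at 24.7 and 25.0 FPKM in the scrambled-labelled libraries and at 40.3 and 42.1 in the knockdown-labelled ones (0.70, SE 0.03, adjusted p = 3.1e-04), a 1.65-fold higher level. Of the 28 promoter windows 1, that of Qars, held the interferon response element. This is close to the share over tested genes (237 of 7114, 3.33%), and a link to the rise was not tested. The match, in capitals, began 199 bases before the start.
Qars, chr9:108507796-108507825, plus strand: tgctaaacacTTTCCCTTTCcacgcccatg

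Vars, the valine enzyme, differed far less, from 18.8 and 18.7 to 20.6 and 21.0 FPKM, 1.11-fold (0.14, SE 0.02, adjusted p = 0.0073). The adjusted p of Vars was 0.066 with the batch as a block, 0.078 without scrambled 1 and 0.085 without scrambled 2, so that 1 cytosolic gene, Qars, was called higher in each of these fits.

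In 3 cytosolic genes, Eprs, Nars and Sars, the libraries fell into pairs that cut across the labels. Nars, the asparagine enzyme, was at 249 FPKM in scrambled 1 and 239.5 in knockdown 2, but at 148 in scrambled 2 and 146 in knockdown 1. Sars, the serine enzyme and the most abundant synthetase, had 376 and 372 FPKM in the first of these pairs and 295 and 289 in the second. Eprs, which charges both glutamate and proline and belongs to the complex, had 10.8 and 10.9 against 6.84 and 6.58. The group means therefore hardly differed (-0.03, -0.02 and -0.02, adjusted p = 0.99 for each), while the difference within a batch was large and opposite: -0.76 and 0.70 for Nars, -0.38 and 0.33 for Sars and -0.64 and 0.61 for Eprs.

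The same pattern was common in the table. Gapdh, a glycolytic enzyme often used as a reference, had 275 and 268 FPKM in scrambled 1 and knockdown 2 and 163 and 161 in scrambled 2 and knockdown 1. Of 1348 tested genes whose libraries differed by at least 0.25 (log2) within both groups, 1342 differed in opposite directions in the 2 groups. In 1121 tested genes (12.8%) the group means also lay within 0.1 of each other, as in 3 of the 36 tested synthetases (8.33%). For Eprs, Nars and Sars the labelled comparison thus gives a mean over unlike libraries, and their part in the medians was not tested.

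**Figure D4:**
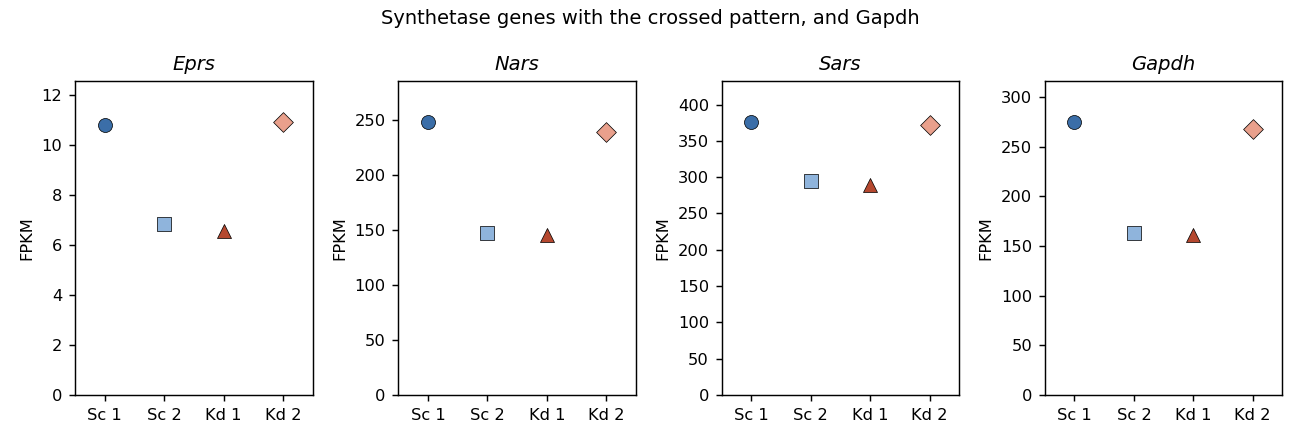
FPKM (linear axis from 0) of Eprs, Nars, Sars and Gapdh in the scrambled-labelled libraries (Sc 1, Sc 2) and knockdown (Kd 1, Kd 2). In all 4 genes Sc 1 lies beside Kd 2 and Sc 2 beside Kd 1, for Nars at 249 and 239.5 against 148 and 146 FPKM.

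The cytosolic genes were also counted by membership of the multisynthetase complex and by structural class. Of the 8 genes in the complex 6 fell (75%), 1 rose and 1 did not pass (median -0.50). Of the 13 outside it 10 fell (76.9%), 1 rose and 2 did not pass (median -0.60). Over all tested genes 41.2% fell and 27.4% rose. The range within the complex, from Iars at -1.07 to Qars at 0.70, was as wide as that of the whole cytosolic set. Of 9 class I genes 7 fell (77.8%) and 2 rose (median -0.52), and of 11 class II genes 9 fell (81.8%) and 2 did not pass (median -0.61). Eprs holds an enzyme of each class and was left out of this split. The differences between these groups were not tested.

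In the main fit the mitochondrial synthetases moved in either direction, at shares close to those over all tested genes. Of the 15 tested 40% fell and 26.7% rose, against 41.2% and 27.4% of all tested genes. The share higher was less close by other measures. Both knockdown-labelled libraries lay above both scrambled-labelled ones in 8 of the 15, against 30.1% of all tested genes. With libraries centred on their medians 9 of the 15 were called higher, against 2833 of all 8750. These differences were not tested. Among those that fell were Hars2, Cars2, Tars2, Rars2 and Wars2, which charge histidine, cysteine, threonine, arginine and tryptophan. Hars2 was at 4.04 and 4.00 FPKM in the scrambled-labelled libraries and at 1.91 and 1.95 in the knockdown-labelled ones (-0.78, SE 0.02, adjusted p = 1.6e-04), 2.08-fold lower. Cars2, Tars2, Rars2 and Wars2 fell between 1.39-fold (Tars2) and 1.57-fold (Wars2). Wars2 alone among these genes lost its call in an alternative, with the trend with gene length removed (adjusted p = 0.067).

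Lars2, the mitochondrial leucine enzyme, showed the largest difference of any synthetase. Its FPKM was 47.7 and 45.6 in the scrambled-labelled libraries and 134 and 126 in the knockdown-labelled ones, from 6789, 7884, 23331 and 20201 fragments. It rose 2.79-fold (1.46, SE 0.04, adjusted p = 1.9e-04), by 1.47 in batch 1 and 1.45 in batch 2, and only 121 tested genes had a higher difference. Lars2 alone made up 39.4% and 38.4% of the summed FPKM of the 17 mitochondrial genes in the scrambled-labelled libraries and 67.1% and 65.5% in the knockdown-labelled ones. The sum was 121 and 119 against 199 and 193 FPKM with Lars2, and 73.4 and 73.2 against 65.5 and 66.6 FPKM without it. The median of the mitochondrial differences was 0.08 without Lars2.

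Beside Lars2, 3 genes chosen after their values were seen moved the same way. The non-coding Gm26917 was at 421 and 407 against 1089 and 1044 FPKM (1.36, adjusted p = 1.7e-04), and Lars2 amounted to 11.3%, 11.2%, 12.3% and 12.1% of it in the 4 libraries. AY036118 was 6.35-fold higher (2.08, SE 0.03, adjusted p = 1.6e-04). Gm15564, below the filter, had 24 and 27 fragments in the scrambled-labelled libraries and 95 and 68 in the knockdown-labelled ones. The GENCODE transcript of Lars2 shared 42 of its 3864 runs of 31 bases (1.09%) with other genes. The FPKM of Lars2 rested on a longer recovered length, 4420 bases, so counted sequence outside this transcript was not compared. The genes listed as sharing them were AA474408 (26 runs) and Gm15564 (22 runs, within a stretch of 52 bases). The sources used here do not say how fragments matching several genes were counted. The part of shared sequence in the Lars2 value was not tested.

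The other mitochondrial genes that rose were Sars2, Pars2 and Aars2, for serine, proline and alanine, and by far less. Sars2, at 8.99 and 8.92 FPKM in the scrambled-labelled libraries, rose 1.31-fold (0.36, SE 0.03, adjusted p = 0.0013). Pars2 was at 3.46 and 3.47 against 4.38 and 4.50 FPKM, 1.28-fold. Aars2 was at 2.17 in both libraries labelled scrambled and at 2.62 and 2.67 FPKM, 1.22-fold (adjusted p = 0.0016). With the standard error held at no less than the counting error of its fragments, Aars2 no longer passed (adjusted p = 0.12). That floor leaves out the added 1, which shrinks the difference of Aars2 (0.20). With voom on whole fragments its difference was 0.29 (adjusted p = 0.0016). Yars2, Fars2, Mars2, Ears2 and Vars2 did not pass, with differences from 0.04 to 0.34 and adjusted p from 0.063 to 0.36. In Vars2, with the highest of these differences, the libraries stood at 2.08 and 2.47 against 3.47 and 2.85 FPKM and did not overlap. Ears2, which charges the tRNAs for glutamate and, as the first step of an indirect route, for glutamine in the mitochondrion, was at 2.16 and 1.98 against 2.36 and 2.63 FPKM.

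Setting each cytosolic gene beside its mitochondrial counterpart gave 19 pairs, in which Eprs, Fars2 and Tars2 each served in more than 1. The cytosolic gene had the higher FPKM in 17 of the 19 in the scrambled-labelled libraries. The exceptions were Lars with Lars2 (a ratio of 0.643) and Tarsl2 with Tars2 (0.197). The median ratio was 21.1 in the scrambled-labelled libraries and 13.8 in the knockdown-labelled ones, and the highest was 367 for Nars over Nars2. That ratio rests on the recovered length of 15488 bases for Nars2.

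Both genes were tested in 17 pairs. The cytosolic difference in log2(FPKM + 1) was the lower in 15 of them, with a median gap of -0.30. Hars with Hars2 was an exception. This scale understates the change of the scarcer gene: with a pseudocount of 0.1 the count was 14 of 17, since Wars1 with Wars2 turned (-0.58 and -0.61), and with voom on whole fragments it was also 14 (-0.58 and -0.65). It was 13 without knockdown 1 and 14 without scrambled 1, where pairs of Eprs turned. In 7 pairs both genes fell, as in Tars with Tars2 (-1.01 and -0.43), Rars with Rars2 (-0.58 and -0.41) and Hars with Hars2 (-0.77 and -0.78). In 4 the cytosolic gene fell and the mitochondrial one did not pass, as in Yars with Yars2. In 2 pairs the genes moved in opposite directions: Aars fell by 0.89 on the log2 scale while Aars2 rose by 0.20, and Lars fell by 0.50 on that scale while Lars2 rose by 1.46. Each of these pairs holds a call that some alternatives lost. Lars did not pass with the batch as a block, nor Aars2 with the floor at the counting error. Pairs that share a gene are not independent, and the gap between partners was not tested.

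**Figure D5:**
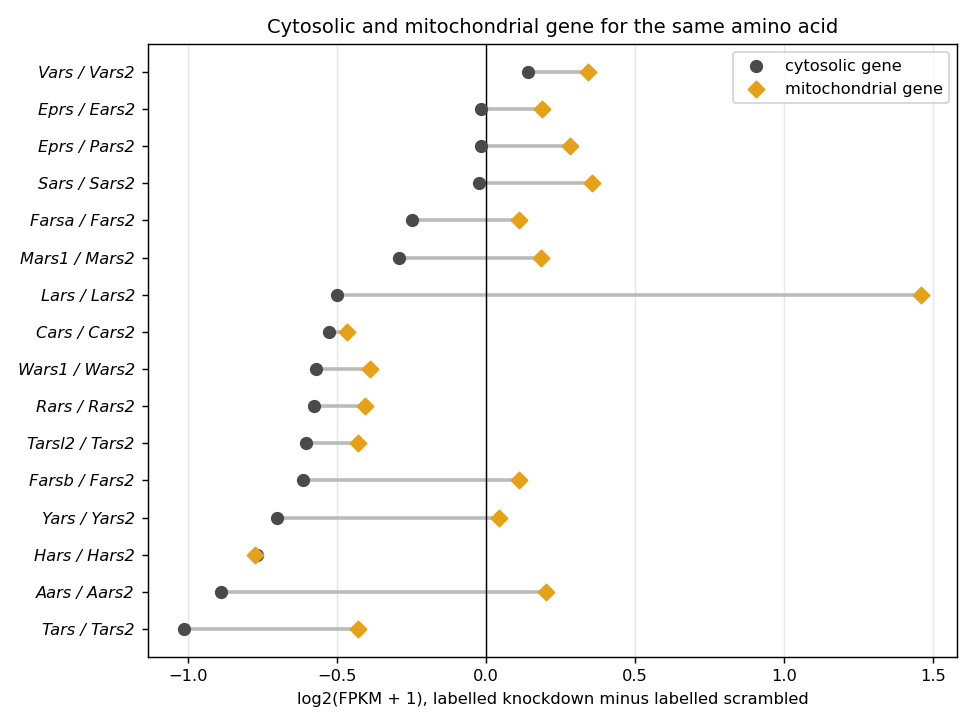
Difference in log2(FPKM + 1), labelled knockdown minus labelled scrambled, of the cytosolic gene (grey circle) and the mitochondrial gene (orange diamond) for the same amino acid, in 16 pairs with both genes tested. The orange diamond lies to the right of the circle in 15 pairs, farthest for Lars with Lars2 (-0.50 and 1.46), and just to the left for Hars with Hars2.

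Hars and Hars2 are a head-to-head pair of related genes, and their transcripts shared 165 runs of 31 bases, 8.42% of the runs of Hars. Other synthetase transcripts shared runs with a neighbour or a copy: Iars2 36.8% of its runs with Rab3gap2, Aars 22.7% with Exosc6, Cars2 19.7% with Naxd and Iars 17.7% mostly with Gm4849. In these genes fragments may be split between entries, so their values are less certain than those of Gars, Yars and Qars, which shared none. Gene length also went with the differences: across 8689 tested genes with a recovered length, Spearman's rho between difference and length was -0.39, a description over genes of the same libraries. Among the tested synthetases rho was 0.20, with 0.29 within the cytosolic and 0.05 within the mitochondrial genes, opposite in sign to the value over all genes. The median length was 2877 bases for cytosolic and 3700 for mitochondrial members, and with that trend removed their medians were -0.50 and 0.25.

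The scaffold of the complex did not move as a unit. Eef1e1 rose from 145 and 144 to 196 and 199.5 FPKM, Aimp1 fell from 109 and 108 to 81.5 and 83.2, and Aimp2 did not pass (141 and 128 against 109 and 121 FPKM, adjusted p = 0.11). Of the 4 genes of the mitochondrial amidotransferase, which finishes the indirect glutamine route, and the formyltransferase of the initiator tRNA 2 fell and 2 did not pass. The share that fell was 50%, against 41.2% of all tested genes. Gatb, an amidotransferase subunit, fell from 1.68 and 1.63 to 1.00 and 1.01 FPKM, and Mtfmt from 11.7 and 11.7 to 10.2 and 10.3. Mtfmt lost its call in 4 of the alternatives, with an adjusted p of 0.97 once libraries were centred on their medians.

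Among 11 proofreading and related proteins 7 rose (63.6%), 1 fell (9.09%) and 3 did not pass, with a median of 0.26. Over all tested genes 27.4% rose and 41.2% fell. In 10 of the 11 both groups had a mean of at least 1 FPKM, and all 7 that rose were among these 10. Pstk, a kinase in the making of selenocysteine tRNA, rose from 16.5 and 16.3 to 27.3 and 27.4 FPKM (0.71, adjusted p = 1.6e-04), and Dtd2, a relative of the enzyme that strips D-amino acids from tRNA, rose 1.40-fold. Of 21 tested genes of tRNA end processing, splicing and export 7 rose (33.3%), 9 fell (42.9%) and 5 did not pass (median -0.07), beside 27.4% and 41.2% of all tested genes. The extremes lay far apart: Rpp25, a subunit of ribonuclease P, rose 6.33-fold from 1.04 and 1.03 FPKM, while Elac2, which trims tRNA 3′ ends, fell from 6.85 and 6.67 to 2.97 and 3.00 FPKM.

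Downstream of charging, 3 of 4 subunits of elongation factor 1 fell (75%, against 41.2% of all tested genes) and 1 did not pass (median -0.22). Eef1a1, which carries charged tRNA to the ribosome, fell from 5258 and 5195 to 2697 and 2746 FPKM (-0.94, adjusted p = 1.6e-04), while Eef1g and Eef1b2 fell by 0.23 and fell by 0.21 on the log2 scale and did not pass with libraries centred on their medians (adjusted p = 0.35 and 0.50). The 9 tested factors of mitochondrial translation had a median of -0.02, with 3 lower (33.3%), 2 higher (22.2%) and 4 not past the test. Over all tested genes 41.2% were lower and 27.4% higher. Gfm1, mitochondrial elongation factor G, fell from 11.6 in both libraries labelled scrambled to 2.81 and 2.85 FPKM, Mtrf1, a release factor, fell 2.98-fold, and Mtrfr, which rescues stalled ribosomes, rose 1.51-fold.

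Of 26 tested genes of the ATF4 and amino acid response list 8 fell (30.8%), 5 rose (19.2%) and 13 did not pass. Over all tested genes 41.2% fell and 27.4% rose. The median of the list was -0.02, as over all tested genes. Within the batches the median was 0.18 and -0.25, and in 6 of the 26 the libraries paired across the labels as in Nars. Slc38a2, a neutral amino acid transporter, fell from 22.5 and 22.8 to 10.1 and 10.4 FPKM, Mthfd2, a mitochondrial folate enzyme, from 159 and 158 to 83.2 and 85.1, and Psat1, a serine synthesis enzyme, from 761 and 742 to 393 and 396. Atf4 itself, added to the named genes after its values were seen, was at 841 and 979 against 955 and 834 FPKM (adjusted p = 0.99). It too paired scrambled 1 with knockdown 2 and scrambled 2 with knockdown 1, with differences of 0.18 and -0.23 within the batches. Of 13 tested interferon-stimulated genes 6, Usp18 and Irf7 among them, had a mean of at least 1 FPKM only in the knockdown-labelled libraries, so the filter kept them through the group in which they are high. Of the other 7, 6 rose and 1 did not pass, beside 27.4% of all tested genes that rose. Usp18 rose from 0.246 and 0.245 to 10.6 and 10.5 FPKM, Irf7 26.3-fold and Isg15 by 3.55 on the log2 scale.

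The spread between libraries was small for most synthetases. In 20 of the 36 tested members the standard error was below the counting error of their fragments. Over all tested genes its median was 0.0208 against a median counting error of 0.0451. The counting error is that of log2 fragments, while the standard error is that of log2(FPKM + 1). The added 1 shrinks the standard error of scarce genes. Among more abundant ones, the standard error was below the counting error in Wars1 (0.0195 against 0.0219) and Rars (0.0191 against 0.0196). In Gars it was above (0.0208 against 0.0111). The part of the unlike scales in this gap was not tested. Actb, a reference gene, also differed, at 2838 and 2809 against 1809 and 1842 FPKM (-0.63).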

How the data were processed

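Polysome RNA of mouse cells was sequenced in 4 libraries, 2 per group. Per the labels' protocols, RNA was taken up in Trizol, messenger RNA was captured on beads, fragmented by heat and made into cDNA libraries. The authors deposited FPKM per gene, named so in the labels. All 4 value columns were used. The submitters' processing notes name the builds GRCm38, mm10 and GRCm39 without their roles, and the sources used here do not give the aligner, the counting tool, the annotation or the use of strand.

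Genes with a mean of at least 1 FPKM (8750 of 18200) were tested on log2(FPKM + 1) in R 4.3.3 by limma 3.58.1 (eBayes with trend after lmFit, no batch term), two-sided, with Benjamini-Hochberg adjustment over the tested genes and a threshold of 0.05; the degrees of freedom were 3.06 per gene. The deposited FPKM are whole fragments times a constant, so fragments were recovered for 8689 tested genes (99.3%) and all 38 synthetases, with a relative tolerance of 3e-08 and an absolute one of 1e-06. Library depth was set by the multiple of the smallest unit at which the largest number of tested genes, 372, had a length equal to that of a GENCODE transcript, so the fragment numbers share 1 factor that rests on this match. Fragments served for depth, gene length, counting error and the voom alternative, and PCR copies count as separate fragments in them. The fit and the recovery were tested on simulated data. Figures were drawn with matplotlib 3.10.9 and the other tables made with pandas 2.3.3 and numpy 2.4.6 under Python 3.11.15. Promoter sequences are RefSeq's, and shared sequence was counted as runs of 31 bases of the longest coding GENCODE transcript of each gene.

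The labels' batch and the replicate number coincide, so they pair the libraries. The difference between libraries 1 and 2 correlated with r = -0.83 between the groups across the 8750 genes, a description over genes of the same libraries. Named genes were every synthetase, Ifit1, Actb, Gapdh and, of each related list, the 3 tested genes with the smallest p; a few of these are not reported here, and counts and medians include them. The members, lists and motifs were chosen with earlier results of these data known. Alternatives were another pseudocount and filter, centring and quantile scaling, the batch as a block, leaving out each library, a floor at the counting error, voom on fragments and removal of the trend with length. The crossed block and the median without Lars2 were added after the data were seen.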

Additional observations from a re-analysis of the deposited data

How the results depend on the processing

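Of 493 combinations of a tested synthetase and an alternative, 444 kept direction and side of the threshold, 17 gained a call, 19 lost one and 13 changed sign, all in 4 genes with no call. Yars2 was -0.14 (adjusted p = 0.039) with the length trend removed. Eprs was 0.16 with libraries centred on their medians, 0.13 with quantile normalization and 0.29 with the length trend removed. Nars was 0.14 and Sars 0.15 with centred libraries, and Sars 0.13 without the length trend. Without scrambled 1 and without knockdown 1, Eprs was 0.28 and 0.31, Nars 0.34 and 0.32, Sars 0.15 and 0.16, and the glycolytic gene Gapdh 0.35 and 0.34, with 0.14 in centred libraries. Without 1 of the other libraries the lowest values were -0.34 (Eprs), -0.41 (Nars), -0.21 (Sars) and -0.40 (Gapdh). Calls were lost by Farsa and Lars (in 6 of 14 alternatives each, adjusted p up to 0.43 and 0.099), Vars (3), Mars1 (2), Wars2 and Aars2, and gained by Ears2, Fars2, Mars2, Vars2 and Yars2.

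With libraries centred on their medians, the median of all tested genes went from -0.02 to 0.15 and their calls to 2833 higher and 3040 lower. Synthetases called higher then numbered 11 (mitochondrial 9), and the medians were -0.40 (cytosolic) and 0.28 (mitochondrial). With quantile normalization all genes numbered 2521 higher and 3364 lower. Synthetases called higher were then 10 (mitochondrial 8), with medians of -0.48 (cytosolic) and 0.20 (mitochondrial). Removing the length trend gave 2565 of all genes higher, 7 mitochondrial synthetases higher and medians of -0.50 (cytosolic) and 0.25 (mitochondrial). With a filter at a mean of 5 FPKM, all genes numbered 1583 higher and 2213 lower, and mitochondrial genes 2 higher and 2 lower (median 0.045), since fewer genes were tested; without a filter 3819 genes were higher and the mitochondrial median was 0.045. It was 0.16 with a pseudocount of 0.1 and 0.17 with voom.

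With the batch as a replicate block 2205 genes were higher and 3417 lower, and 1 cytosolic synthetase was higher and 14 lower; only Farsa, Lars and Vars lost their calls among synthetases. Pairing libraries crosswise gave 2962 and 4282, and 11 synthetases higher (mitochondrial 9). Leaving out 1 library gave 1 to 2 cytosolic genes higher and a mitochondrial median from 0.076 to 0.13, where the arm with 1 library is assumed to vary like the other. Where not named, the cause was not tested. Over all alternatives the related lists gave 5 to 8 proofreading genes higher, 6 to 11 tRNA processing genes lower, 6 to 11 ATF4 list genes lower and 7 to 15 interferon-stimulated genes higher, with the fewest under the stricter filter except for proofreading. Over the same settings 1583 to 3819 of all genes were higher and 2213 to 4679 lower. The interferon counts include genes that the filter kept through the knockdown-labelled libraries, where they are high, so they add no support for a rise.

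The counting error was 0.11 on the log2 scale for Mars2 (122 to 215 fragments per library) and for Tarsl2 (128 to 271).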
